A study of Mus musculus with 23 samples.

Results

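The adipocyte genes described here are 9 of the 27466 genes of the count table: Adipoq, Cfd, Lpl, Fabp4, Plin1, Plin4, Cidec, Car3 and Pparg. They were picked by name as genes of fat cells, with their levels over the ages and culture days known, so those levels are given as a description and without a test. The study measured mouse testes that matured in the animal and pieces of immature testis that matured in organ culture, by polyA RNA sequencing of whole tissue. All animals were wild-type CD-1 mice. The in vivo groups were testes at 6.5 days postpartum (dpp), either fresh (1 library used here) or thawed after controlled slow freezing (CSF, 3 libraries), and fresh testes at 10.5 dpp (3 libraries), 22.5 dpp (3 libraries) and 36.5 dpp (2 libraries). The in vitro groups were explants of 6.5 dpp testes kept for 4 days (D4, 3 libraries), 16 days (D16, 2 libraries) or 30 days (D30, 3 fresh libraries and 1 CSF library), matched in age to testes of 10.5 dpp, of 22.5 dpp and of 36.5 dpp in that order. All explants were kept in a medium with KnockOut serum replacement and retinol, the dead centre of each piece was removed before RNA extraction, and several pieces went into each replicate, so that a library is not 1 animal. As in the study, CSF tissue was grouped with fresh tissue.

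The 21 libraries held 28351546 to 69029328 counts each, at which 3 counts, the floor used here for a library, equal 0.0435 to 0.106 CPM, the count scaled to a common library total. A further 6.5 dpp fresh library, replicate 1, stood apart from its group and was left out. Over genes above 1 CPM in at least 1 library, its Spearman correlation was 0.981 with D16 replicate 1 and 0.846 with 6.5 dpp fresh replicate 2. It was 0.955 to 0.976 with the D30 libraries and about as high, 0.952 to 0.975, with the testes of 22.5 dpp. The 6.5 dpp fresh replicate 3 held the same values as replicate 2 and was counted with it as 1 sample. In the replicate left out, Plin1 was at 3.40 CPM and Lpl at 23.0 CPM, both below the other 6.5 dpp libraries, Plin4 at 1.16 CPM, Pparg at 2.58 CPM and Adipoq at 0.48 CPM, all above them, and Fabp4 at 1.71 CPM, within their range. Nothing in the labels says whether replicates came from separate litters, and p-values below measure the spread between these libraries.

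White adipocytes store triglyceride in a lipid droplet whose surface is coated by perilipins and CIDE proteins. Lipoprotein lipase releases fatty acids from circulating lipoproteins, fatty acid binding proteins carry them through the cytoplasm, and the nuclear receptor PPARγ switches on much of this programme while the cell secretes adiponectin and adipsin into the blood. The seminiferous tubules and interstitium of the testis normally hold no fat tissue, although a fat pad lies against the epididymis, and Leydig, Sertoli and germ cells handle lipids of their own. Several of these genes are known from other cells too: Lpl, Fabp4 and Pparg from macrophages, and Fabp4 from capillary endothelium.

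The label of the set was not borne out as the signature of 1 cell type. Of the 9 genes, 3 that are abundant in fat, Cfd, Car3 and Cidec, were at or near the floor in every group, and only 6 had enough counts to pass the filter on low counts. The other 6 followed different courses. Adipoq was highest in testes of 36.5 dpp, Lpl and Plin1 in testes of 6.5 dpp, Pparg at D4, and Fabp4 and Plin4 at D30, so that none of the explant groups was high in the whole set. The plot of the 9 genes by library shows these courses.

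**Figure D1:**
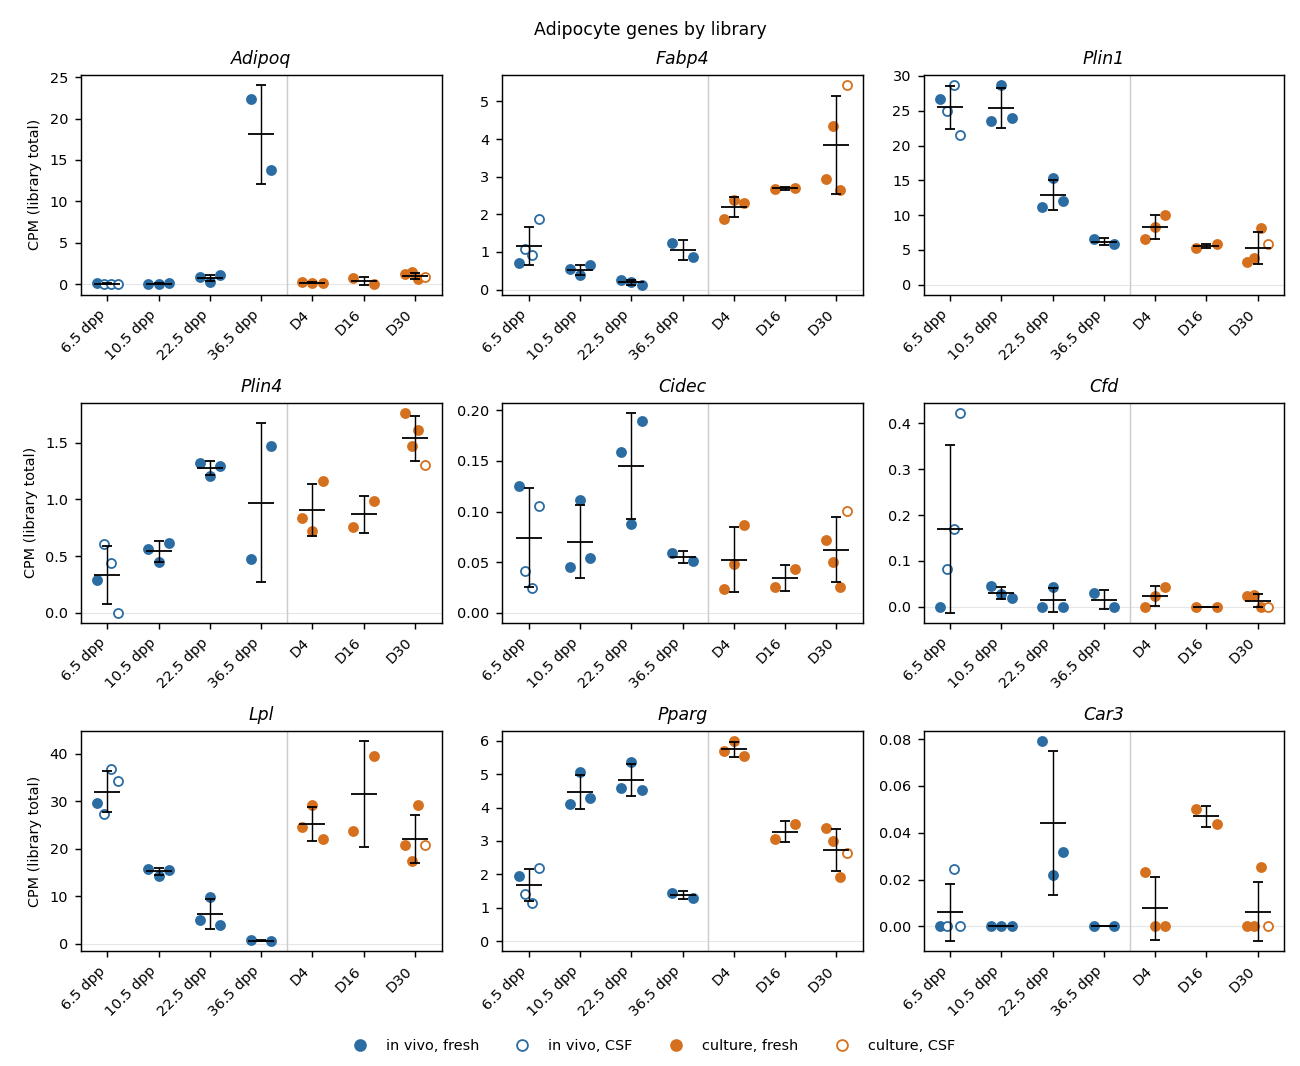
CPM of each gene in every library (y axis, CPM of the library total, a scale of its own per panel) for the 4 in vivo and 3 culture groups (x axis); filled circles are fresh and open circles CSF tissue, and bars show the group mean ± SD. Adipoq stands out at 36.5 dpp at 18.1 CPM, Lpl is lower at each later age in vivo, from 32.0 to 0.641 CPM, and is at 17.3 CPM or more in every culture library, and Cfd, Cidec and Car3 stay below 0.5 CPM throughout.

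Levels can be compared between genes only per length, as CPM per kilobase of transcript. On that scale Plin1 was the highest of the 9 genes in testes of 6.5 dpp (mean 9.05 CPM per kilobase), followed by Lpl at 7.78, while Adipoq was at 0.0600 and Plin4 at 0.0579. At 36.5 dpp Adipoq was highest at 14.0 CPM per kilobase, ahead of Plin1 at 2.21 and Fabp4 at 1.18, and Lpl was at 0.156. At D30 the order was Lpl at 5.36, Fabp4 at 4.30, Plin1 at 1.87, Pparg at 1.55, Adipoq at 0.791 and Plin4 at 0.267 CPM per kilobase. The leading gene thus differed between the youngest testis, the oldest testis and the longest culture.

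Among the secreted proteins, Adipoq encodes adiponectin, a hormone that fat cells release into the blood. It lies on chromosome 16, from 23146536 to 23157968 (GRCm38.p6). In the 4 libraries of 6.5 dpp it had 2 to 5 counts, and its level was 0.078 ± 0.018 CPM (SD, n = 4). At 10.5 dpp it was as low, at 0.071 ± 0.018 CPM (SD, n = 3). At 22.5 dpp the libraries held 0.871, 0.285 and 1.07 CPM, and at 36.5 dpp they held 22.3 and 13.8 CPM. The mean at 36.5 dpp was thus 24.3-fold above that at 22.5 dpp, and all libraries of 22.5 dpp were above all of 10.5 dpp. In culture the 3 D4 libraries held 0.209, 0.144 and 0.145 CPM. The 2 D16 libraries were far apart, at 0.729 and 0.0656 CPM, the latter being 3 counts. The 4 D30 libraries held 1.18, 1.47, 0.579 and, for the CSF library, 0.854 CPM.

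Against its age-matched testis, Adipoq was therefore higher at D4 and lower at D30. All D4 libraries were above all of 10.5 dpp, with a ratio of means of 2.33, but this rests on 25 against 10 counts, and the ratio of the pooled rates was 2.20 with an exact 95% interval of 1.02 to 5.14 that covers counting error only. At D16 the libraries overlapped those of 22.5 dpp (ratio 0.534). At D30 the mean was 17.7-fold below that of 36.5 dpp, and the highest D30 library, at 1.47 CPM, was well under the lower testis library, at 13.8 CPM. Within the culture, D30 was 6.16-fold above D4, with no overlap.

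Cfd encodes adipsin, the complement factor D protease, which fat cells secrete in large amounts. It lies on chromosome 10, from 79890853 to 79892655. Of the 4 libraries of 6.5 dpp, the fresh one had no count and the 3 CSF libraries had 4, 7 and 12 counts, equal to 0.0832, 0.170 and 0.423 CPM. In every other group no library had more than 3 counts, and both D16 libraries had none. The counts above the floor were thus all in CSF testes of 6.5 dpp, whereas the CSF library of D30 had no count.

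The sequences before the starts of these secreted-protein genes are shown because Adipoq was the one whose group means spanned the widest fold range and Cfd one of the lowest. Both are the 250 bases upstream of the start in RefSeq (GRCm38.p6), 5′ to 3′ on the strand of the gene, chr16:23146286-23146535 and chr10:79890603-79890852, both on the plus strand. Capitals mark the letters CCAAT, or ATTGG where it lies on the other strand.
Adipoq: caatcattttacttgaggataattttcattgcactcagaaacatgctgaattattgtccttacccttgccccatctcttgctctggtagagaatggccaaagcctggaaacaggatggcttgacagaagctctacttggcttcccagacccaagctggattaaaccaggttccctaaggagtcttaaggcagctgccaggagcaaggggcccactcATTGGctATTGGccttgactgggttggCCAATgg
Cfd: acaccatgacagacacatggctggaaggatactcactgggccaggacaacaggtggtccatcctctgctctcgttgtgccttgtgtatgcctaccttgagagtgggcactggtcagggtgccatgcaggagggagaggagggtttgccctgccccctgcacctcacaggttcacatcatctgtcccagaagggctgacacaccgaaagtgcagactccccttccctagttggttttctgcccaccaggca
The window of Adipoq held CCAAT 3 times, once on its own strand and at 2 places on the other, and that of Cfd held none. At least 1 CCAAT stood in 33.8% of 32851 RefSeq windows of the same length, read on both strands, and in 4 of the 9 windows of the set, which cover Adipoq, Plin1, Plin4, Cidec, Cfd and Pparg, some with several starts. The nuclear receptor half-site AGGTCA stood in 2 of these 9 windows, both of Pparg, against 14.0% of all, and TATAAA in 1, against 12.4%. The palindromes TTGCGCAA and TGACGTCA stood in none of the 9, against 0.164% and 1.55% of all.

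Lpl encodes lipoprotein lipase, the enzyme that releases fatty acids from lipoproteins at the vessel wall, and lies on chromosome 8, from 68880555 to 68906932. In vivo its level was lower at each later age. The 4 libraries of 6.5 dpp held 27.3 to 36.9 CPM (mean 32.0 ± 4.36, SD), those of 10.5 dpp 15.8, 14.3 and 15.5 CPM, those of 22.5 dpp 4.94, 9.92 and 3.92 CPM, and those of 36.5 dpp 0.743 and 0.540 CPM. No library of one age overlapped those of the next. In culture the level changed less. The D4 libraries held 24.6, 29.2 and 22.0 CPM, and the D16 libraries 23.7 and 39.5 CPM. The D30 libraries held 20.8, 17.3, 29.3 and 20.8 CPM, with a mean of 22.0 CPM. All D30 libraries but fresh replicate 3, at 29.3 CPM, were below every 6.5 dpp library. Neighbouring groups among 6.5 dpp, D16, D4 and D30 overlapped. The ratio to the age-matched testis was therefore 1.66 at D4, 5.05 at D16 and 34.4 at D30, with no overlap at any of the 3 times.

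Fabp4 encodes a fatty acid binding protein of adipocytes, macrophages and capillary endothelium, and lies on chromosome 3, from 10204342 to 10208616. It was 1.15 ± 0.506 CPM (SD, n = 4) at 6.5 dpp, where the fresh library was lowest at 0.710 CPM and the CSF libraries held 1.08, 0.924 and 1.87 CPM. It was then lower at 10.5 dpp (0.539, 0.389 and 0.655 CPM) and lowest at 22.5 dpp (0.264, 0.197 and 0.126 CPM, or 4 to 10 counts), and 1.25 and 0.874 CPM at 36.5 dpp. In the explants it was 2.19 ± 0.267 CPM (SD, n = 3) at D4, 2.66 and 2.71 CPM at D16, and 2.95, 4.36, 2.64 and 5.45 CPM at D30, the last of these being the CSF library. All explant libraries were above every in vivo library, although the closest values, 1.88 CPM in D4 replicate 1 and 1.87 CPM in 6.5 dpp CSF replicate 3, were nearly the same. The ratio to the age-matched testis was 4.14 at D4, 13.7 at D16 and 3.63 at D30, each without overlap.

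Plin1 encodes perilipin 1, the droplet coat protein that guards stored triglyceride from lipases, and lies on chromosome 7, from 79721164 to 79732904. Its level at 6.5 dpp averaged 25.5 ± 3.08 CPM (SD, n = 4), and testes of 10.5 dpp overlapped with these at 25.4 ± 2.87 CPM (SD, n = 3). It was 11.2, 15.3 and 12.1 CPM at 22.5 dpp and 6.53 and 5.89 CPM at 36.5 dpp. In culture it was already lower at D4, at 6.64, 8.27 and 10.1 CPM, and then 5.33 and 5.81 CPM at D16 and 3.21, 3.80, 8.19 and 5.88 CPM at D30. The testis mean was 3.05-fold above the explant mean at the age of D4 and 2.31-fold above it at the age of D16, without overlap. At D30 the libraries overlapped those of 36.5 dpp and the mean of the testis was 1.18-fold higher.

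Plin4 encodes perilipin 4, a coat protein of small nascent droplets, and lies on chromosome 17, from 56100587 to 56109948, where its end overlaps that of Hdgfl2. It was among the low members. At 6.5 dpp the fresh library held 0.292 CPM and the CSF libraries 0.603, 0.438 and 0 CPM. Testes of 10.5 dpp averaged 0.542 ± 0.088 CPM (SD, n = 3) and those of 22.5 dpp had a mean of 1.27 ± 0.060 CPM (SD, n = 3). The libraries of 36.5 dpp held 0.475 and 1.47 CPM, which differed from each other more than any other pair of replicates of this gene after 6.5 dpp. The explants held 0.836, 0.719 and 1.16 CPM at D4, then 0.754 and 0.983 CPM at D16, and the 4 of D30 averaged 1.54 ± 0.195 CPM (SD). The ratio to the age-matched testis was 1.67 at D4 and 0.682 at D16, both without overlap and in opposite directions. At D30 the ratio of 1.58 came with overlap. It was 3.24 without 36.5 dpp replicate 2, but that replicate, at 1.47 CPM, was itself close to the D30 mean of 1.54 CPM.

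Cidec encodes a protein that fuses droplets in white fat and lies on chromosome 6, from 113424634 to 113435760, inside which a long noncoding RNA gene, Gm52871, starts. No library held more than 6 counts of it. The highest group mean was 0.145 CPM at 22.5 dpp, and the libraries of every neighbouring pair of groups in the order of means overlapped. Car3 encodes carbonic anhydrase 3, one of the most abundant transcripts of white fat, and lies on chromosome 3, from 14863538 to 14872381. It had no count in 13 libraries and 1 to 3 counts in the others, so that it stayed at the floor in all 7 groups.

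Pparg encodes PPARγ, the nuclear receptor required for fat cell formation, and lies on chromosome 6, from 115360879 to 115490404. In vivo it was low at both ends of the series, with a mean of 1.67 ± 0.477 CPM (SD, n = 4) in the youngest testes and 1.46 and 1.29 CPM at 36.5 dpp, and higher between them, at 4.11, 5.06 and 4.27 CPM at 10.5 dpp and 4.59, 5.37 and 4.52 CPM at 22.5 dpp. In culture it was highest at D4, at 5.69, 5.99 and 5.53 CPM, and lower at D16, at 3.07 and 3.50 CPM. At D30 the libraries held 3.38, 2.99, 1.91 and 2.64 CPM, and all were below every D4 library. Against the age-matched testis the ratio was 1.28 at D4, 0.679 at D16 and 1.99 at D30, each without overlap but not in 1 direction.

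**Figure D2:**
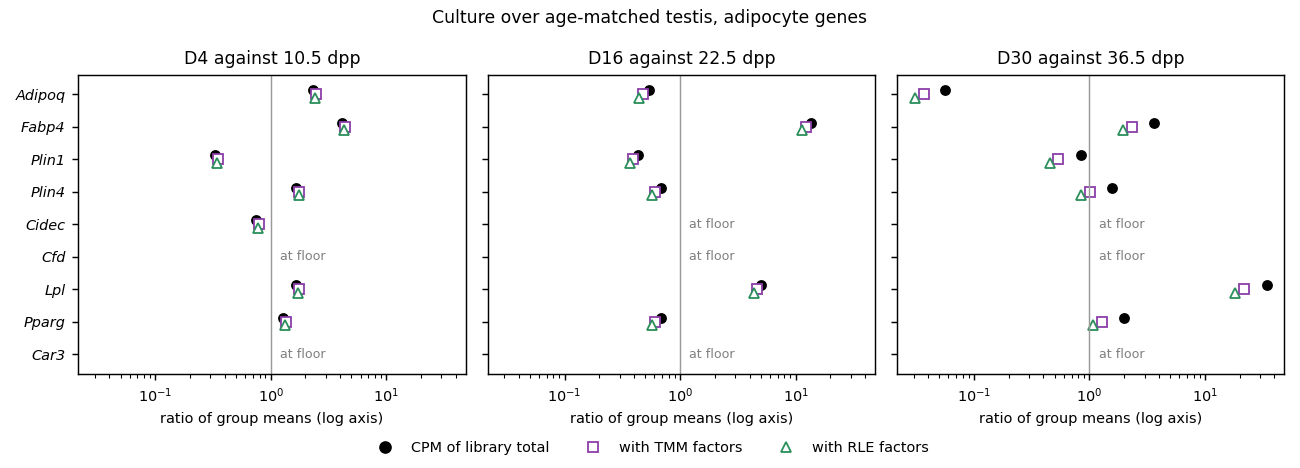
Ratio of the mean level in culture to the mean in the age-matched testis (x axis, log scale, 1 marked by a line) for the 9 genes (y axis; "at floor" marks Cfd and Car3 throughout and Cidec at D16 and D30, which have no ratio), computed from CPM of the library total and with TMM and RLE factors. At D30 Lpl lies to the right at 34.4 and Adipoq to the left at 0.0565, while Plin4 falls on either side of 1 depending on the scaling; the Cidec ratio at D4 rests on 1 to 6 counts a library.

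Seen together, the age-matched comparisons gave no shared direction. The libraries of D4 were all above those of 10.5 dpp for 5 of the 9 genes, against 16.3% of 21216 genes above the floor, and all below them for 1, against 28.9%. The libraries of D16 were all above those of 22.5 dpp for 2 genes, against 27.1%, and all below for 4, against 20.9%. Among these 4 was Cidec, with 1 and 2 counts at D16 and 4 to 6 counts at 22.5 dpp. The libraries of D30 were all above those of 36.5 dpp for 3 genes, against 43.8%, and all below for 1, against 24.8%. Car3 counts among the 9 although no library held more than 3 counts of it, whereas the shares of all genes leave such genes out. The level per library total depends on what else the library holds. By library size the median gene was 0.60 higher at D30 than at 36.5 dpp on the log2 scale, and with the factors of TMM, which centre each library on its bulk of genes, this median was -0.03. With TMM factors the D30 ratios became 22.0 for Lpl, 2.34 for Fabp4, 1.29 for Pparg and 1.01 for Plin4, and Adipoq was 27.1-fold and Plin1 1.86-fold lower than at 36.5 dpp. With RLE factors, the size factors of DESeq2, Plin4 came to 0.850, on the other side of 1, and Pparg came to 1.07.

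Over the 21 libraries the 6 genes that passed the filter did not vary as 1 group. On log2 CPM, Pearson's r was -0.83 between Adipoq and Lpl, -0.63 between Adipoq and Plin1, -0.60 between Fabp4 and Plin1 and 0.40 between Fabp4 and Lpl, and between Adipoq and Fabp4 it was 0.07. These points share groups and depth, and the correlations only describe them. By the same measure, the genes most like Adipoq were 4930527G23Rik (r = 0.987), Sox5 (0.987) and Olfr128 (0.986). Fabp4 was most like Gpihbp1 (0.906), Gpx3 (0.902) and Il7r (0.893), Plin1 like Ren1 (0.955), Esr1 (0.955) and Dppa3 (0.951), and Plin4 like Synrg (0.926), Rubcn (0.920) and Fam160b2 (0.915). Lpl was most like Cdc40 (0.984), Tmem168 (0.978) and Rap2b (0.976), and Pparg like Bhmg1 (0.957), Prdm9 (0.930) and Gm7972 (0.930). Genes of the set were left out of this ranking. The highest r between any pair of the 6 genes was the 0.40 of Fabp4 and Lpl, below that of every gene named in the ranking.

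Marker genes of other cells moved over the same groups. The summed level of 4 germ cell markers was 345 CPM at 6.5 dpp, 379 at 10.5 dpp, 1232 at 22.5 dpp and 4784 at 36.5 dpp, against 845 at D30, and was thus highest where Adipoq was highest. The sum of 9 endothelial markers was 239, 261, 78.6 and 46.6 CPM at the 4 ages and 323, 356 and 230 CPM at D4, D16 and D30, and 10 macrophage markers summed to 144, 193, 338 and 161 CPM at the 4 ages and 80.4, 489 and 694 CPM in culture. Within groups the macrophage sum ranged from 66.8 to 94.0 CPM at D4 and from 460 to 893 CPM at D30. The 4 Leydig cell markers summed to 1572 CPM at 36.5 dpp and 404 CPM at D30, and the 2 Sertoli cell markers to 65.9 and 729 CPM. Of all groups, the Leydig cell sum was thus also highest at 36.5 dpp, and the Sertoli cell sum was lowest there. Skeletal muscle markers, 9 genes, stayed between 3.24 and 6.87 CPM in sum in every library, and 6 mesothelial markers between 1.24 and 42.7 CPM, highest at D30. Of 7 epididymal markers, 6 were at the floor in every library, and only Rnase10 was above it. Among all these markers Spag11b, an epididymal gene, had a level of 0 in every group, and the part of these cells in the levels of the adipocyte genes was not tested. In bulk tissue, fewer cells of a type and less RNA per cell cannot be told apart.

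**Figure D3:**
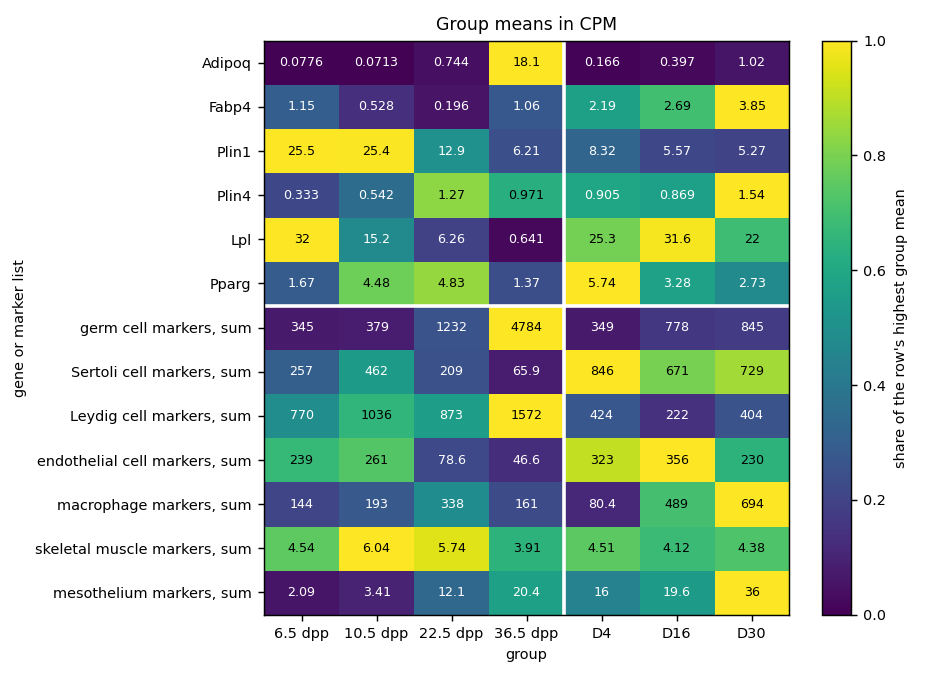
Group means in CPM (numbers in the cells) of the 6 adipocyte genes that passed the filter and of the summed markers of 7 other cell types (y axis) over the 7 groups (x axis); colour gives each value as a share of the highest group mean of its row. Adipoq and the germ cell sum both peak at 36.5 dpp, at 18.1 and 4784 CPM, and Lpl and the endothelial sum are both lowest there, at 0.641 and 46.6 CPM. The Leydig cell sum peaks there too, and the Sertoli cell and skeletal muscle sums are also lowest there.

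To set the 9 genes in their pathways, 62 other adipocyte genes in 6 lists were counted, all of which passed the filter and could be tested. A gene was called where edgeR's quasi-likelihood test gave at least a 2-fold change and a Benjamini-Hochberg adjusted p under 0.05 over 19255 genes. Against 10.5 dpp, D4 had 5 of the 62 genes called higher and 2 called lower (8.06% and 3.23%), against 3.45% and 2.43% of all genes tested. Against 22.5 dpp, D16 had 7 called higher and 8 called lower (11.3% and 12.9%), against 8.83% and 8.24%, and by library size alone the split was 11 and 5. Against 36.5 dpp, D30 had 19 called in each direction (30.6% each way), against 25.2% and 29.8%, and by library size alone the split was 25 higher and 15 lower. The median log2 change of the 62 genes was 0.08, -0.03 and -0.27 at the 3 times, and of all genes tested it was -0.01, -0.08 and -0.03. The lists therefore held calls in both directions, at shares of the same order as the whole table at D30.

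In vivo, 29 of the 62 genes were higher and 22 lower at 36.5 dpp than at 6.5 dpp (46.8% and 35.5%), against 35.4% and 32% of all genes. By library size alone 25 were higher and 29 lower, and the median of all genes was then -0.74 on the log2 scale. This comparison and that of D30 share the libraries of 36.5 dpp. Within the culture, 13 were higher and 8 lower at D30 than at D4 (21% and 12.9%), against 23.4% and 7.8%. The count lower at D30 was 5 without D30 fresh replicate 2 and without the D30 CSF replicate.

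**Figure D4:**
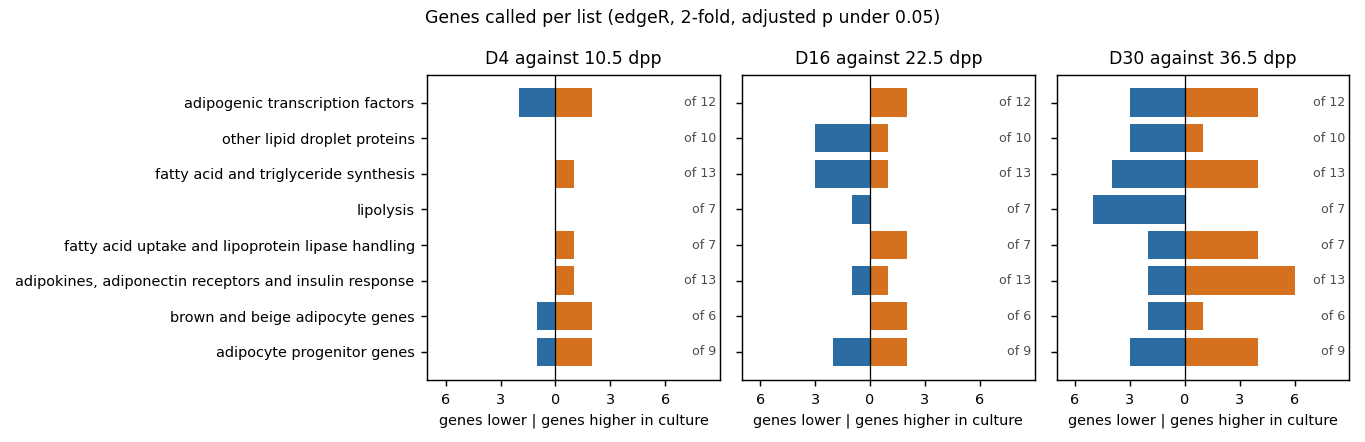
Number of genes called higher in culture (right, orange) and lower in culture (left, blue) on the x axis for each of 8 lists (y axis) in the 3 age-matched comparisons; the number at the right of each panel is how many genes of the list were tested. At D30 the 7 lipolysis genes have 5 calls lower and none higher.

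At D4, 1 gene each was called higher among the synthesis, uptake and adipokine lists and 2 among the transcription factors. Scd1, which makes monounsaturated fatty acids, was 107 ± 1.65 CPM in the explants against 16.03 ± 1.63 CPM at 10.5 dpp (SD, n = 3 each; log2 change 2.82 ± 0.24 SE, edgeR adjusted p = 7.57e-07). Gpihbp1, which holds lipoprotein lipase on capillary endothelium, was 17.7 ± 5.90 CPM against 1.48 ± 0.466 CPM (log2 change 3.67, edgeR adjusted p = 0.00372). Cdh13, a cell surface receptor for adiponectin, was 9.62 against 1.65 CPM (log2 change 2.62, edgeR adjusted p = 6.33e-05), and Cebpd, an early adipogenic transcription factor, 20.6 against 6.40 CPM (log2 change 1.77, edgeR adjusted p = 0.00283). The fifth higher gene was Klf15, and the 2 lower ones were Cebpa, a late adipogenic factor (13.3 against 30.1 CPM), and Ebf2 (0.790 against 1.90 CPM). No gene was called lower without 10.5 dpp replicate 3 or without D4 replicate 1, and 1 was without 10.5 dpp replicate 1, D4 replicate 2 or D4 replicate 3. None of the 10 other lipid droplet genes and none of the 7 lipolysis genes was called in either direction at D4. Among the droplet genes, Cidea was higher (log2 change 0.90, edgeR adjusted p = 0.0214) but by less than 2-fold.

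At D16, Gpihbp1 was 18.0 and 73.5 CPM against 0.106 to 0.197 CPM at 22.5 dpp (log2 change 8.05, edgeR adjusted p = 2.56e-05). Adipor1, an adiponectin receptor, was 442 ± 14.7 CPM (SD, n = 2) against 168 ± 32.2 CPM (SD, n = 3; log2 change 1.25, edgeR adjusted p = 0.00121). Thrsp, an inducer of lipid synthesis, was 1.02 against 7.90 CPM (log2 change -3.11, edgeR adjusted p = 5.10e-05). Cd36, the fatty acid transporter, was 61.0 against 14.9 CPM, Srebf1 169 against 56.2 CPM and Scd1 74.4 against 29.9 CPM, whereas Bscl2, or seipin (138 against 333 CPM), Fitm1 (2.11 against 4.95 CPM) and Plin5 (0.893 against 1.93 CPM) among the droplet proteins were lower, as was the lipase gene Pnpla2 (110 against 231 CPM). The 7 genes from Cd36 to Pnpla2 lost their calls without D16 replicate 2, where 3 of the 62 genes were higher and 1 was lower, while without 22.5 dpp replicate 1 the lower genes were 3 and without 22.5 dpp replicate 3 they were 4.

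At D30, lipolysis was the list with calls in 1 direction: 5 of its 7 genes were lower than at 36.5 dpp, against 29.8% of all genes, and none higher. Adrb3, 1 of the 7, was at the floor of 3 counts in both groups. By library size alone 3 were lower, since Pnpla2 (log2 change -0.97) and Pde3b (-0.43) then changed by less than 2-fold, and with RLE factors 5 were. Lipe, hormone-sensitive lipase, was 43.0 ± 21.2 CPM (SD, n = 4) against 362 ± 110 CPM (SD, n = 2; log2 change -3.70, edgeR adjusted p = 2.37e-07). Abhd5, the activator of adipose triglyceride lipase, was 79.7 against 223 CPM, and Pnpla2, that lipase itself, was 139 against 273 CPM. Pde3b, a phosphodiesterase, and Aqp7, a glycerol channel, were the other genes called, and are named after their values were seen. The median log2 change of the list was -1.60. In vivo, 6 of these 7 genes were higher at 36.5 dpp than at 6.5 dpp and 1 was lower, and the median log2 change was 2.90, but both comparisons use the same 36.5 dpp libraries. Their summed level was 158 CPM at 6.5 dpp, 1206 CPM at 36.5 dpp and 437 CPM at D30, and so moved with the germ cell sum, whose part was not tested.

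The list of fatty acid and triglyceride synthesis was split at D30, with 4 of 13 genes higher and 4 lower. Agpat2, an acyltransferase, was 18.2 against 137 CPM (log2 change -3.54, edgeR adjusted p = 9.90e-09) and Dgat2, which makes the final step to triglyceride, 55.7 against 255 CPM (log2 change -2.83, edgeR adjusted p = 1.53e-08). Acly, which supplies acetyl-CoA, was 402 against 97.0 CPM (log2 change 1.40, edgeR adjusted p = 1.20e-04) and Gpam 144 against 30.5 CPM. In the uptake list, 4 of 7 genes were higher and 2 lower: Gpihbp1 was 25.1 against 0.473 CPM (log2 change 5.10, edgeR adjusted p = 1.88e-04), Fabp5, a relative of Fabp4, 25.9 against 4.46 CPM and Slc27a1 136 against 32.0 CPM, whereas Acsl1, which activates fatty acids, was 89.6 against 684 CPM (log2 change -3.56, edgeR adjusted p = 9.73e-08). The sum of the endothelial markers was also higher at D30 than at 36.5 dpp, as given above. Of these 9 markers 6 were called higher and 2, Tek and Vwf, lower. The part of endothelial cells in the Gpihbp1 level was not tested.

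Among the 12 adipogenic transcription factors 4 were higher at D30 and 3 lower, with 6 and 3 by library size alone and 2 and 4 with RLE factors. Mlxipl, the glucose-responsive factor ChREBP, was 71.1 against 4.20 CPM (log2 change 3.43, edgeR adjusted p = 2.15e-06) and Srebf1, the sterol and lipogenic factor, 166 against 16.1 CPM (log2 change 2.71, edgeR adjusted p = 4.77e-06). Klf5 was 4.46 against 19.7 CPM and Rxrg, a partner of PPARγ, 0.200 against 1.86 CPM. Of the 10 other lipid droplet genes 1 was higher, Cidea, at 58.0 against 6.30 CPM (log2 change 2.56, edgeR adjusted p = 1.11e-06), and 3 were lower, among them Plin2, at 28.3 against 63.8 CPM (log2 change -1.82, edgeR adjusted p = 1.96e-06). By library size alone 4 droplet genes were higher and 3 lower, and with RLE factors 1 and 5. Cidea is a relative of Cidec, which stayed near the floor.

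Of the 13 genes for adipokines, adiponectin receptors and insulin response 6 were higher and 2 lower at D30. Adipor2 was 200 ± 44.6 CPM against 53.1 ± 1.05 CPM (log2 change 1.27, edgeR adjusted p = 5.64e-05), and Cav1 and Cavin1, which form caveolae, were 48.2 against 9.60 CPM and 144 against 17.2 CPM. The lower genes were the hormone genes Retn, at 0.405 against 1.71 CPM (log2 change -2.70, edgeR adjusted p = 1.47e-05), and Lep, which had 0 to 4 counts at D30 and 2 and 12 counts at 36.5 dpp and was not called without 36.5 dpp replicate 2, without D30 fresh replicate 3 or without the D30 CSF replicate. In the explants the group means of Retn were 0.175, 0.329 and 0.405 CPM at D4, D16 and D30, and those of Lep were at most 0.049 CPM.

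Of the 8 brown and beige adipocyte genes 6 were tested. Cox8b was at the floor in every library. At D30 Elovl3 was higher, at 5.60 against 1.15 CPM, and Prdm16 (3.64 against 5.59 CPM) and Dio2 (3.63 against 4.95 CPM) were lower, and without 36.5 dpp replicate 2 none of these 3 calls held. The log2 changes of Prdm16 and Dio2 were -1.26 and -1.07 with TMM factors and -0.62 and -0.45, no longer called, by library size alone, where 3 genes of the list were higher and 0 lower. At D4 2 were higher and 1 lower, and at D16 2 were higher. The 9 adipocyte progenitor genes, which also mark stromal cells at large, had 4 higher and 3 lower at D30. Cd34 was 210 against 19.9 CPM (log2 change 2.76, edgeR adjusted p = 6.88e-08) and Pdgfra 183 against 22.5 CPM (log2 change 2.37, edgeR adjusted p = 3.09e-06), while Zfp423, a commitment factor, was 7.91 against 29.0 CPM (log2 change -2.50, edgeR adjusted p = 6.89e-06). At D4 Ly6a was 51.2 against 5.66 CPM (log2 change 3.26, edgeR adjusted p = 0.00264). At D4 the list had 2 genes higher and 1 lower, and at D16 2 each way.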

How the data were processed

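Testes and cultured testis explants of mice were sequenced by the authors as stranded polyA libraries with single-end reads of 50 bases, aligned to GRCm38 with STAR 2.7.3a and counted per gene with HTSeq 0.12.4 (names and versions per the labels and the study's methods). The deposited table holds raw counts per gene, 27466 genes by 23 columns, and every column was matched to a sample by its title. The strand setting of the counting is not given in the sources used here, so reads of Plin4 and Hdgfl2, or of Cidec or Car3 and the noncoding genes that overlap them, may not be told apart. Polyadenylated transcripts only were measured.

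CPM were computed from library totals, and per kilobase of the longest principal GENCODE vM21 transcript. The 6.5 dpp fresh replicate 1 was left out because it resembled cultured tissue more than its own group. It resembled testes of 22.5 dpp about as much. Replicate 3 was left out because its values were those of replicate 2. Genes were tested with edgeR 4.0.16 in R 4.3.3 (TMM factors, filterByExpr, quasi-likelihood F test, 1 fit of 7 groups and 21 libraries, Benjamini-Hochberg adjustment over the 19255 genes kept), and a gene was called at a 2-fold change with an adjusted p under 0.05. The fit was tested on simulated counts. Alternatives were DESeq2 1.42.0, RLE factors, library size, no filter, other thresholds, fresh tissue only, the library left out put back, a replicate block, and leaving out each library in turn.

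The 9 genes and all lists were chosen with earlier results of these data known. The text names the 9 genes, marker genes and, per list, direction and age-matched comparison, up to 3 genes by smallest p. It also names genes at the floor of 3 counts in every library. For each of the 9 genes that passed the filter, it names the 3 genes outside the set most like it. Intervals cover counting error only. Reference sequences and positions are from RefSeq GRCm38.p6; Fabp4, Lpl and Car3 had no promoter window there.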

Additional observations from a re-analysis of the deposited data

Results flagged for a closer look

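In 3 genes the culture libraries all lay on one side of the age-matched testis at one time and all on the other side at another, and the difference between the times was not tested. Adipoq had a ratio of means of 2.33 at D4 and of 0.0565 at D30. Plin4 had a ratio of 1.67 at D4 and of 0.682 at D16. Pparg had ratios of 1.28 at D4 and 1.99 at D30 and of 0.679 at D16 between them. The counts behind Adipoq at D4 were 25 against 10 over the libraries of each group. A check for single outlying libraries in the groups of 4 covered 15 combinations of gene and group and found none.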

How the results depend on the processing

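Of the results, 10 counts of called genes, the 19 ratios to age-matched testis that 7 of the 9 genes allowed, and the calls of the named list genes were recomputed, and none turned direction in a call, while the D30 ratio of Plin4, 1.58 by CPM, was 0.850 with RLE factors. For the 62 other adipocyte genes, a limit of 4-fold with an adjusted p of at most 0.001 left 2 higher and 0 lower at D4 against 10.5 dpp, 1 and 1 at D16 against 22.5 dpp, 6 and 13 at D30 against 36.5 dpp, 25 and 6 at 36.5 against 6.5 dpp, and 5 higher and 1 lower at D30 against D4. With no limit on fold there were 12 higher at D16, and 20 higher and 13 lower at D30 against D4. By library size alone, 11 were higher and 5 lower at D16. With 6.5 dpp fresh replicate 1 put back, 3 were higher and 0 lower at D4 and 2 lower at D16, and without a filter 1 was lower at D4. With the replicate block, 1 was lower at D4 and the D16 counts were 10 higher and 7 lower. No label ties same-numbered libraries to a shared litter or batch, and they were not treated as pairs, since not every pair of the comparison with 3 pairs was over 0.1: the correlations of their deviations were 0.197, 0.0263 and -0.0115 for D4 with 10.5 dpp, 0.531 and 0.663 for D16 with 22.5 dpp and -0.353 and -0.334 for D30 with 36.5 dpp. Leaving out each library in turn gave 4 to 6 higher and 0 to 2 lower at D4, 3 to 10 and 1 to 12 at D16, 16 to 20 and 17 to 22 at D30 against 36.5 dpp, 28 to 30 and 17 to 25 at 36.5 against 6.5 dpp, and 11 to 18 and 5 to 7 at D30 against D4. A group of 2 then holds 1 library, which is assumed to vary like the others. Of the calls of named genes, 16 were lost without D16 replicate 2, 10 without 22.5 dpp replicate 1, 8 without 22.5 dpp replicate 3, 23 with 6.5 dpp fresh replicate 1 put back, 11 by library size alone and 3 with DESeq2; the cause was not tested. Counts of 3 or fewer per library limit Cfd, Car3, Cidec and, before 22.5 dpp, Adipoq.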
